A study of Mus musculus with 4 samples.

Results

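Enzymes that remove reactive oxygen species and keep glutathione reduced are represented here by 10 genes, chosen by name: Sod1, Sod2, Cat, Gpx4, Prdx1, Prdx2, Prdx3, Gclc, Gclm and Gsr. All 10 are among the 16861 genes listed in every library, and 9 of them had enough expression to be tested. The libraries hold RNA of germinal vesicle (GV) mouse oocytes, which are fully grown and still arrested before meiotic maturation. NSN oocytes (non-surrounded nucleolus) have diffuse chromatin, and in SN oocytes (surrounded nucleolus) condensed chromatin rings the nucleolus. There are 2 NSN and 2 SN libraries. Oocytes of both groups came from C57BL/6J females aged 3 weeks, with no treatment of the animals named. They were freed of cumulus cells by pipetting and sorted by eye after Hoechst staining of the DNA. For this sorting the paper names the drug milrinone in the staining medium and a brief exposure to ultraviolet light. The oocytes were stripped of the zona with pronase, and 15 oocytes were pooled for each library. The labels do not say whether the replicates came from separate mice, so p-values measure only the spread between these libraries, which may be technical.

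Superoxide that leaks from the respiratory chain is turned into hydrogen peroxide by superoxide dismutases, and the peroxide is then reduced by peroxiredoxins, glutathione peroxidases or catalase. Glutathione, a small thiol made in a first step by glutamate-cysteine ligase, supplies electrons to the glutathione peroxidases, and its oxidised form is reduced again by glutathione reductase with NADPH. Oocytes are known for their store of glutathione, which after fertilisation helps to loosen the disulphide-bound chromatin of the sperm.

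The deposited values are FPKM, that is read pairs on the exons of a gene relative to its length and to the total of the library. Library totals recovered from these values ranged from 17069772 to 17998361 read pairs, at which 3 read pairs on 1 kb give an FPKM of 0.167 to 0.176. That limit covers counting error only, since PCR-amplified read pairs are not independent molecules. FPKM are shares of a library, so less RNA of a gene per oocyte cannot be told apart from fewer oocytes that carry it or from more RNA of other genes. All 12 oocyte markers were listed, with Zp3, a zona pellucida gene, at a mean FPKM of 6244. Their summed FPKM was 23012 and 21480 in the NSN libraries against 15416 and 14787 in the SN libraries, and 8 of the 12 were called lower in SN, by the test and thresholds given with the comparison, where 1.98% of all genes tested were. Of 15 granulosa and cumulus cell markers 7 were listed, with sums of 9.45 and 13.5 FPKM in NSN and 13.7 and 13.6 FPKM in SN. Amh, Foxl2 and 6 more of these markers were not listed, and the part of such cells in the results was not tested. Of 8 blood and immune markers only Cd68 was listed, at 0.594 to 0.972 FPKM.

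The 10 genes ran from the 14.2nd to the 99.6th percentile of the listed genes by mean FPKM. By mean FPKM over the 4 libraries the order was Prdx2, Prdx1, Sod1, Gpx4, Sod2, Prdx3, Gclm, Gsr, Gclc and Cat, from 936.8 FPKM for Prdx2 to 0.168 FPKM for Cat. Only the neighbours Prdx2 and Prdx1 overlapped in their ranges over the libraries, and every other neighbouring pair in that order was apart. Together the 10 genes summed to 2025 and 2011 FPKM in the NSN libraries and to 1789 and 1951 FPKM in the SN libraries. Prdx1 and Prdx2 alone made up 93.2% of that sum in each NSN library and 92.6% in each SN library. This is a share of the 10 genes only, and other genes of redox control, Glrx among them, were also abundant. The 10 genes took 0.442% and 0.439% of the listed read pairs in NSN, and 0.385% and 0.421% in SN.

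**Figure D1:**
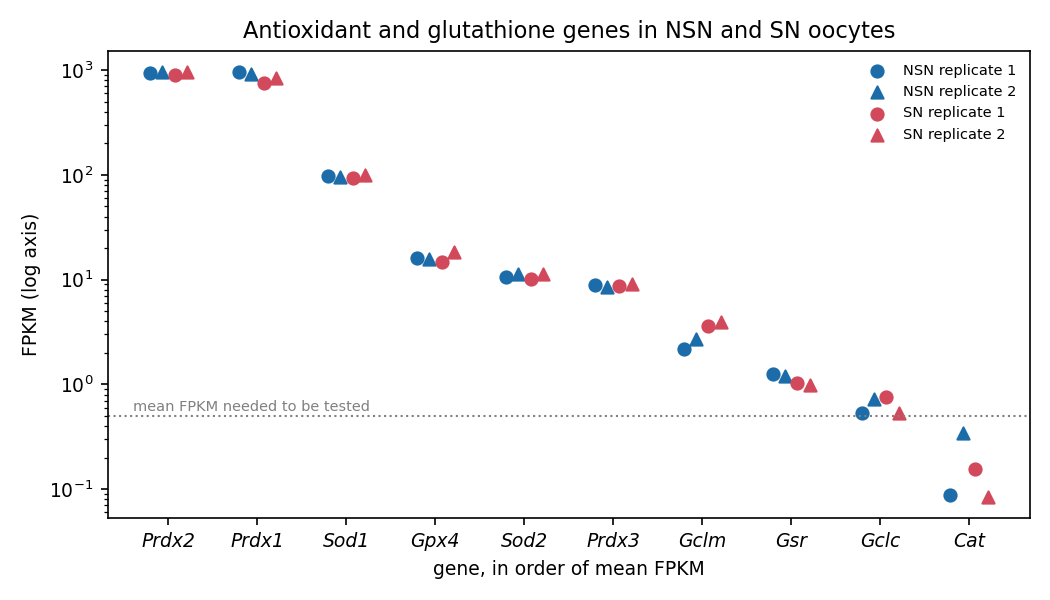
FPKM of the 10 genes (log axis) in each of the 4 libraries, ordered by mean FPKM. Circles are replicate 1 and triangles replicate 2, blue is NSN and red is SN, and the dotted line is the mean of 0.5 FPKM needed to be tested. Prdx2 and Prdx1 lie near the top of the axis in every library, and Cat lies below the line.

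These levels rest on the gene lengths used by the authors, which is a limit for Sod1 above all. The length recovered for Sod1 from its FPKM was 641 bases, whereas its exons in a later annotation of the same genome cover 8648 bases. When the same read pairs were divided by the exonic lengths of that annotation, the mean level of Sod1 was 7.15 in place of 96.5 FPKM. Read pairs were not counted anew on those longer exons, so these values show only the effect of the length. The order of the 10 genes was then Prdx1 (531.9), Prdx2 (382.1), Gpx4 (11.97), Prdx3 (7.93), Sod1 (7.15), Sod2 (4.87), Gclm (2.18), Gsr (0.432), Gclc (0.350) and Cat (0.120), so the lead of the pair of peroxiredoxins and the low place of Cat were found with both lengths. A fold of SN over NSN uses the same length for both groups.

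SN was compared with NSN by limma on log2(FPKM + 0.5) over the 11672 genes whose FPKM averaged 0.5 or more. A call needed a Benjamini-Hochberg adjusted p under 0.05 over all those genes and a fold change of at least 1.2. None of the 9 genes tested was called, against 7.93% of all genes tested. At an unadjusted p under 0.05 there were 2 of the 9, Gclm and Prdx1, where 31.7% of all genes passed. The median log2 fold change of the 9 genes was -0.006, beside 0.14 for all genes tested, and 1 of the 9, Gclm, lay above that all-gene median. The groups did not overlap for 3 of the 9, where they did not for 62.6% of all genes tested. Both SN libraries were the higher for 1 of the 9 (44.8% of all genes) and the lower for 2 (17.8%). Fold changes on this scale understate those of genes with few FPKM. For a single value, the smallest two-sided p of an exact permutation test on 2 and 2 libraries is 0.333.

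**Figure D2:**
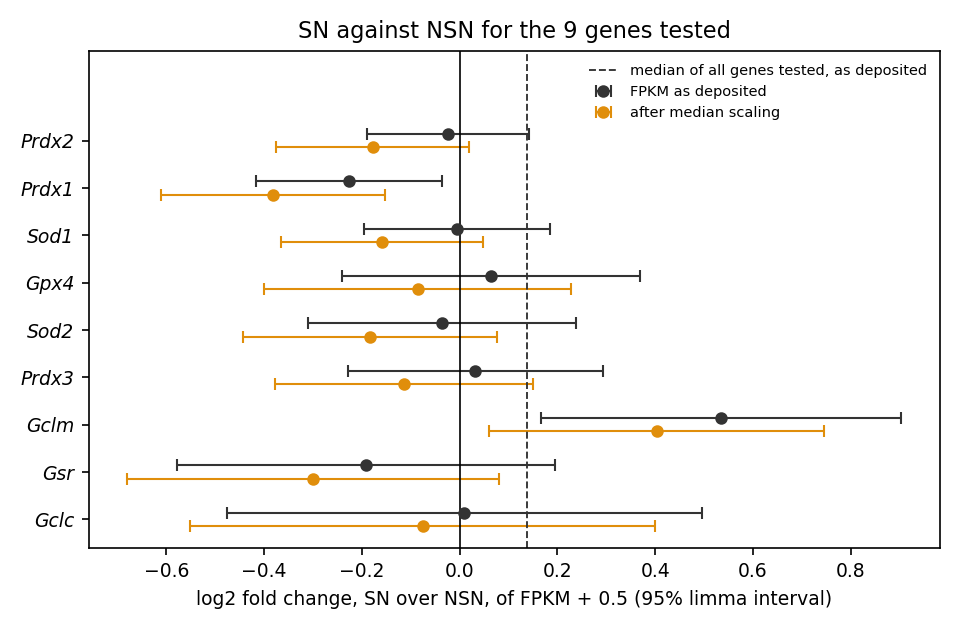
Log2 fold change of SN over NSN, on the FPKM + 0.5 scale, with its 95% limma interval for the 9 genes tested (n = 2 libraries a group), as deposited (black) and after median scaling (orange). The dashed line is the median of all genes tested, 0.14. Gclm lies farthest to the right at 0.54 and Prdx1 farthest to the left at -0.23, and 7 of the 9 black intervals include 0.

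The 0.14 of the median gene is itself a matter of scaling. When each library was rescaled by the median ratio of its genes to their means, the all-gene median was 0.005, the 926 calls became 257 (2.2%, with 0.668% higher and 1.53% lower in SN), and the share of calls that were higher in SN went from 75.1% to 30.4%. The median of the 9 genes was then -0.16, with 0 of 9 called. Gpx4, Prdx3 and Gclc, all near 0 as deposited, changed sign under this scaling, and the other 6 kept theirs.

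Sod1 and Sod2 carry out the first step, the dismutation of superoxide. Sod1, the copper-zinc enzyme of the cytosol (GRCm39 chr16:90017408-90027657, plus strand), was at 97.6 and 95.7 FPKM in NSN and at 92.7 and 100.03 FPKM in SN. The SN libraries lay on either side of the NSN libraries. Its log2 fold change was -0.006 (SE 0.08, 95% interval -0.20 to 0.18, limma adjusted p = 0.970). As deposited, the values therefore leave room for a fold of SN over NSN between 0.873 and 1.14. After median scaling the log2 fold change of Sod1 was -0.16 (95% interval -0.37 to 0.05, limma adjusted p = 0.280). Sod2, the manganese enzyme of the mitochondrial matrix (chr17:13224095-13259591, plus strand), was at 10.5 and 11.4 FPKM in NSN and at 10.1 and 11.3 FPKM in SN, with 1006 to 1198 read pairs behind each value. Its groups overlapped as well, with a log2 fold change of -0.04 (SE 0.11, interval -0.31 to 0.24, limma adjusted p = 0.857). The ratio of Sod1 to Sod2 was 9.28 and 8.39 in NSN and 9.22 and 8.82 in SN, on the authors' lengths. Exons of Scaf4 on the other strand share 48.8% of the exonic bases of Sod1 in the later annotation. As the counting ignored strand, read pairs of the 2 genes cannot be told apart there. How many of the 641 bases behind the FPKM are shared was not determined. Other genes also share 20.6% of the exonic bases of Prdx2, 13.8% of Prdx1, 13.2% of Gpx4 and 12.6% of Gclm. For Sod2 and Gsr it is 8.94% and 2.08%. A genomic copy of the Sod1 coding sequence (97.8% identical) is not among the listed genes.

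Prdx1, Prdx2 and Prdx3 reduce hydrogen peroxide with a cysteine that is itself oxidised in the reaction and then reduced by thioredoxin. The stretch around this peroxidatic cysteine shows how alike the coding sequences of the 3 genes are where they do the same work, and is given from the GRCm39 annotation with the cysteine codon in capitals (coding bases 142 to 168 of Prdx1, 139 to 165 of Prdx2 and 313 to 339 of Prdx3, each 5′ to 3′).
Prdx1: tttacttttgtgTGTcccacggagatc
Prdx2: ttcacttttgttTGCcccacggagatc
Prdx3: ttcacatttgtgTGTcctacagaaatt
Of these 27 bases Prdx1 shared 24 with Prdx2 and 21 with Prdx3, and Prdx2 shared 20 with Prdx3. Over the aligned coding sequences the identity was 70.0% for Prdx1 and Prdx2, 69.5% for Prdx1 and Prdx3, and 67.3% for Prdx2 and Prdx3. The longest run of bases shared by any pair of the 3 transcripts was 18 bases, shorter than any of these 27-base stretches. The genome also holds near-identical processed copies, 2 copies of the Prdx1 coding sequence (98.3% and 97.5% identical) and 1 of the Prdx2 coding sequence (96.3% identical). The Prdx2 copy, Prdx2-ps1, was listed at 2.41 and 2.71 FPKM in NSN and at 1.47 and 1.30 FPKM in SN, far under Prdx2 itself. The listed copy of Prdx1, Gm21399, had 2 to 4 read pairs in a library. Read pairs that fit a gene and its copy are uncertain in both.

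Prdx2 (chr8:85693354-85702350, plus strand) was the 75th most abundant gene of all 16861, at 938.2 and 950.1 FPKM in NSN and at 900.04 and 958.9 FPKM in SN. The NSN values lay within the range of the SN values. Its log2 fold change was -0.02 (SE 0.07, interval -0.19 to 0.14, limma adjusted p = 0.843) with the narrowest interval of the 9 genes. Prdx1 (chr4:116532123-116558398, plus strand), the 80th most abundant gene, was at 950.0 and 925.1 FPKM in NSN and at 757.0 and 847.6 FPKM in SN, from 32872 to 42156 read pairs. Both SN libraries were lower than both NSN libraries. The mean was 937.5 ± 17.5 FPKM (SD, n = 2) in NSN and 802.3 ± 64.1 FPKM (SD, n = 2) in SN. The log2 fold change of -0.23 (SE 0.08, interval -0.42 to -0.04) did not pass the adjustment (limma adjusted p = 0.111, unadjusted p = 0.026). Under voom with trimmed-mean scaling on the recovered read pairs Prdx1 was called, with a log2 fold change of -0.37 and an adjusted p of 0.012, where 14.7% of all genes were called, 6.59% higher and 8.13% lower. Under voom scaled to the library total its adjusted p was 0.043, with a fold too small for a call. Over the alternatives its adjusted p ranged from 0.012 to 0.405, and its log2 fold change was below 0 in each.

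The balance between Prdx1 and Prdx2 does not depend on library scaling. The ratio of Prdx1 to Prdx2, on the authors' lengths, was 1.01 and 0.974 in NSN and 0.841 and 0.884 in SN, that is 0.993 ± 0.0274 and 0.862 ± 0.0303 (SD, n = 2 each). Both SN libraries had the lower ratio, and the two-sided exact permutation p was 0.333, the smallest that this design allows. Prdx3, the peroxiredoxin of mitochondria (chr19:60852489-60863017, minus strand), was far less abundant than either. It was at 8.94 and 8.42 FPKM in NSN and at 8.68 and 9.10 FPKM in SN, with overlapping groups and a log2 fold change of 0.03 (SE 0.11, limma adjusted p = 0.861). The ratio of Prdx1 to Prdx3 was 106.3 and 109.8 in NSN and 87.2 and 93.2 in SN. The mitochondrial pair, Sod2 and Prdx3, summed to 19.5 and 19.8 FPKM in NSN and to 18.7 and 20.4 FPKM in SN, which overlapped.

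**Figure D3:**
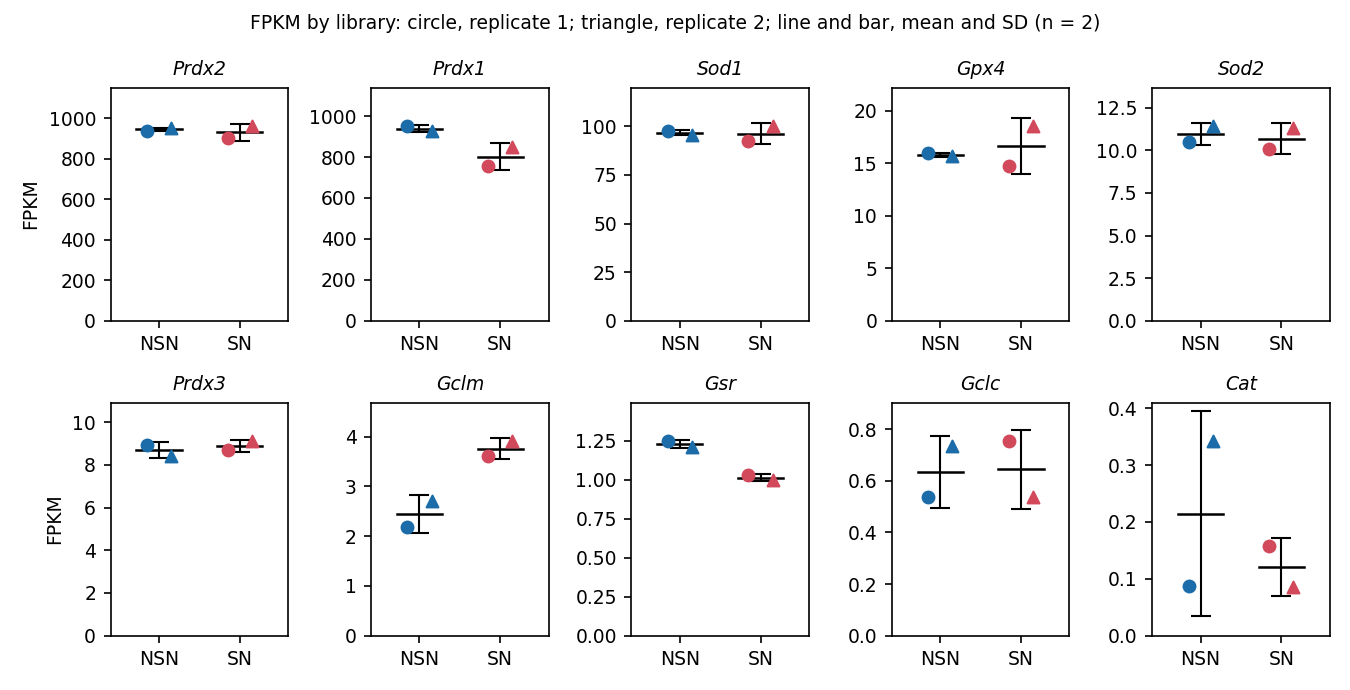
FPKM of each of the 10 genes by group, with an axis from 0 for each gene. Points are libraries (circle, replicate 1, and triangle, replicate 2), and the line and bar are the mean and SD of 2 libraries. The groups are apart for Prdx1, Gclm and Gsr among the 9 genes tested, and overlap for the other 6 and for Cat.

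Gpx4 and Cat are the other peroxide-removing enzymes. Gpx4 reduces lipid hydroperoxides in membranes with glutathione and is a selenoprotein, whose selenocysteine is read from an in-frame TGA. That codon, in capitals, and its surroundings (coding bases 205 to 231, 5′ to 3′, from the GRCm39 annotation) are shown because the genes that read it as selenocysteine are described with the other lists.
Gpx4: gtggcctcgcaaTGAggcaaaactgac
Gpx4 (chr10:79883000-79892273, plus strand) was at 15.9 and 15.7 FPKM in NSN and at 14.8 and 18.5 FPKM in SN. The SN libraries lay on either side of the NSN pair, with a log2 fold change of 0.06 (SE 0.13, interval -0.24 to 0.37, limma adjusted p = 0.760). A processed copy, Gpx4-ps2, is 99.6% identical to 93.6% of its coding sequence and is not among the listed genes. Cat, the peroxisomal catalase (chr2:103284194-103316185, minus strand), was at 0.088 and 0.342 FPKM in NSN and at 0.157 and 0.085 FPKM in SN. These values came from 4, 16, 7 and 4 read pairs, and only 14.2% of the listed genes had a lower mean. Cat was under the filter and was not tested. A fit of all listed genes called 0 genes, so it cannot tell whether Cat differed.

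Gclc and Gclm encode the catalytic and the modifier subunit of glutamate-cysteine ligase, the rate-limiting enzyme of glutathione synthesis. Gclm (chr3:122039126-122065061, plus strand) had the largest fold change of the 9 genes. It was at 2.18 and 2.72 FPKM in NSN and at 3.61 and 3.91 FPKM in SN, from 212, 272, 344 and 393 read pairs. Both SN libraries were above both NSN libraries, with means of 2.45 ± 0.381 FPKM and 3.76 ± 0.213 FPKM (SD, n = 2 each) and a ratio of means of 1.53. The log2 fold change was 0.54 (SE 0.15, interval 0.17 to 0.90), and it missed the threshold (limma adjusted p = 0.075, unadjusted p = 0.011). Gclm was called under voom on the recovered read pairs (0.62, adjusted p = 0.012), where 19.7% of all genes were called, 15.1% higher and 4.58% lower. It was also called under voom with trimmed-mean scaling (0.47, adjusted p = 0.046), where 14.7% of all genes were called. In limma without NSN replicate 2, which leaves a single NSN library, the log2 fold change of Gclm was 0.67. Over the alternatives its adjusted p ranged from 0.012 to 0.273, and its log2 fold change was above 0 in each.

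For the catalytic subunit the groups overlapped. Gclc (chr9:77661797-77701770, plus strand) was at 0.537 and 0.734 FPKM in NSN and at 0.753 and 0.536 FPKM in SN, from 32 to 45 read pairs. A library of each group was near 0.54 FPKM, and the log2 fold change of 0.01 (SE 0.20, interval -0.48 to 0.50, limma adjusted p = 0.977) was the least precise of the 9. The ratio of Gclm to Gclc was 4.06 and 3.70 in NSN and 4.79 and 7.29 in SN, so the modifier subunit was the more abundant transcript in every library. Both SN libraries had the higher ratio, with a two-sided exact permutation p of 0.333, the smallest possible here. Gsr, glutathione reductase (chr8:34142551-34188192, plus strand), was at 1.246 and 1.211 FPKM in NSN and at 1.03 and 0.998 FPKM in SN. The groups did not overlap, but the 47 to 58 read pairs behind each value left a log2 fold change of -0.19 with an interval of -0.58 to 0.19 (SE 0.16, limma adjusted p = 0.446).

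Many genes of antioxidant defence carry in their promoters the antioxidant response element, which the transcription factor Nrf2 (gene Nfe2l2) binds as a dimer with a small Maf protein. The core TGACNNNGC was searched on both strands from 250 bases before to 50 bases after the start of the canonical transcript (GRCm39). It occurs in 2713 of 21757 promoters of protein-coding genes (12.5%) and in 3 of these 10, those of Sod1, Prdx1 and Gclm. The matches are shown, core in capitals, because they include both genes with an unadjusted p under 0.05. All 3 lie on the strand opposite to the gene and are printed on that strand, the minus strand, 5′ to 3′.
Sod1 (chr16:90017303-90017331): ggattgtcacTGACTTTGCacagcgcgcc
Prdx1 (chr4:116542653-116542681): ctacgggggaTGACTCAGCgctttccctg
Gclm (chr3:122039062-122039090): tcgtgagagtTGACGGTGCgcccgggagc
The cores lie at -95 to -87, -78 to -70 and -54 to -46 from the start of the canonical transcripts of Sod1, Prdx1 and Gclm. For Prdx1 that transcript starts inside the gene interval given above, so this match lies within the interval too. The log2 fold changes of these 3 genes were -0.006, -0.23 and 0.54, so genes with the match lay on both sides of 0. A match of these letters is a description and not a binding site, and binding was not analysed here. Nfe2l2 itself, named here after its values were seen, was at 13.97 and 13.65 FPKM in NSN and at 10.98 and 9.34 FPKM in SN, with a log2 fold change of -0.43 (SE 0.12, limma adjusted p = 0.068). It was called lower in SN under voom (-0.45, adjusted p = 0.025), where 4.58% of all genes were called lower. Under voom with trimmed-mean scaling it was called lower too (-0.60, adjusted p = 0.0095), where 8.13% of all genes were. In limma after median scaling Nfe2l2 was not called (-0.58, adjusted p = 0.058), where 1.53% of all genes were called lower. Of 11 tested genes for Nrf2 and its regulators, 2 were called higher and 1 lower under voom, where 15.1% and 4.58% of all genes were. With trimmed-mean scaling 0 were called higher and 1 lower, where 6.59% and 8.13% of all genes were. Keap1, the repressor of Nrf2, was at 0.153 to 0.309 FPKM in the 4 libraries and was not tested.

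A further 115 genes that act with these enzymes were grouped by role into 8 lists. Of the 115 genes, 95 were listed and 75 tested, and 4 of the 75 were called, 2 higher and 2 lower in SN, where 5.95% and 1.98% of all genes tested were called. Their log2 fold changes were above 0 for 39 and below 0 for 36, where 66.7% of all genes tested were above 0, with a median of 0.02 beside 0.14 for all genes tested. After median scaling 1 of the 75 was called, where 2.2% of all genes were, and their median was -0.12. With voom and trimmed-mean scaling 2 were called higher and 14 lower, where 6.59% and 8.13% of all genes were. The 4 genes called in limma were Gsta4, Rbx1, G6pdx and Sephs2. Each kept its sign whichever library was omitted. Their effects then ran from 0.62 to 0.76 for Gsta4 and from 0.40 to 0.56 for Rbx1. For G6pdx they ran from -0.58 to -0.42, and for Sephs2 from -0.52 to -0.33 (log2 fold changes). Such fits leave a single library in a group, which has no spread of its own, so they cannot tell whether these 4 calls hold. Median scaling also took the list medians of the superoxide and peroxide enzymes, of Nrf2 with its regulators, of the other Nrf2 targets and of selenoprotein synthesis from above to below 0.

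**Figure D4:**
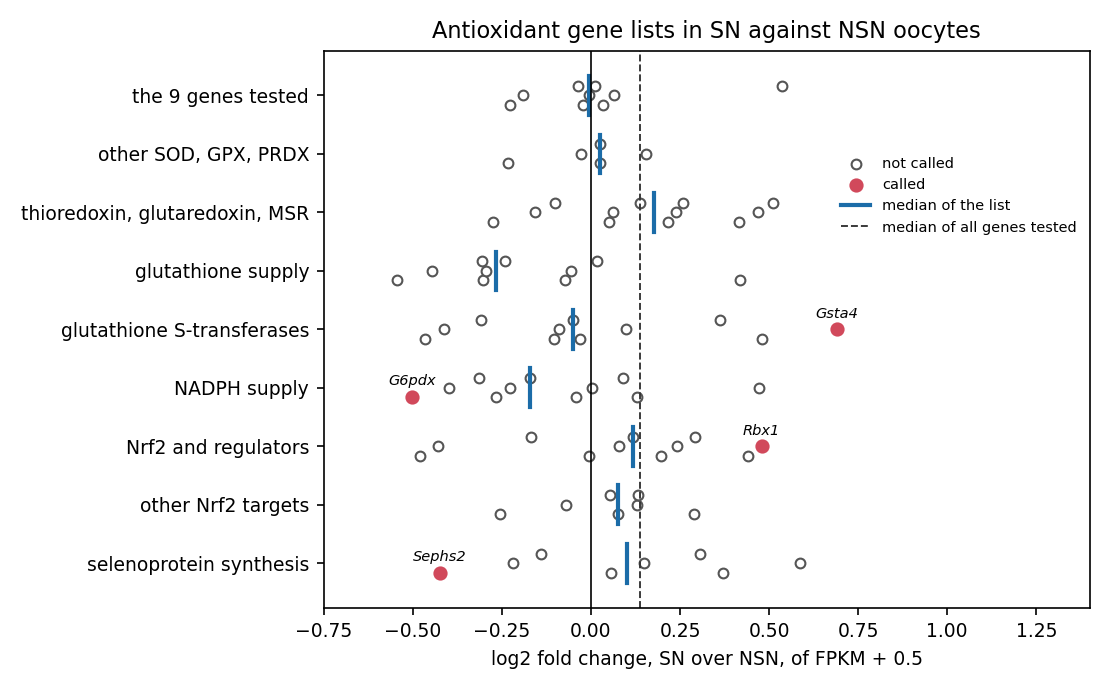
Log2 fold change of SN over NSN, on the FPKM + 0.5 scale, for the 9 genes tested and for the 75 tested genes of 8 lists by role. Each circle is a gene, filled red where called, blue bars are list medians and the dashed line is the median of all genes tested, 0.14. The medians run from -0.27 for glutathione supply to 0.18 for thioredoxin and glutaredoxin genes, and the 4 called genes belong to 4 lists.

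Among the other superoxide and peroxide enzymes none of 5 tested genes was called, where 7.93% of all genes tested were. Their median log2 fold change was 0.02 as deposited and -0.12 after median scaling. Prdx5, a peroxiredoxin of mitochondria and peroxisomes, was the most abundant of them, at 36.9 and 32.1 FPKM in NSN and 31.3 and 36.4 FPKM in SN, more than Prdx3 in every library. Gpx1, the cytosolic glutathione peroxidase, was at 0.055 to 0.570 FPKM and was not tested. In the list of thioredoxins, glutaredoxins and methionine sulphoxide reductases none of 12 was called, where 7.93% of all genes tested were. Of the 12 genes 9 were above 0, where 66.7% of all genes were. The median was 0.18 as deposited and 0.04 after median scaling. Glrx, a glutaredoxin that removes glutathione from proteins, exceeded all 10 antioxidant genes at 1797 and 1832 FPKM in NSN and 1802 and 1987 FPKM in SN. Its groups overlapped, with a log2 fold change of 0.06 (SE 0.08, limma adjusted p = 0.611), and it turned to -0.09 after median scaling.

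Glutathione supply, which covers the second synthetic step, cystine uptake and glutathione breakdown, had 0 of 10 called, where 7.93% of all genes tested were. Of the 10 genes 2 were above 0, where 66.7% of all genes tested were above 0. The median log2 fold change of glutathione supply, -0.27, was the lowest of the lists. Both SN libraries were lower than both NSN libraries for 6 of 10, where this held for 17.8% of all genes tested. The same held for 6 of 11 tested genes of NADPH supply and for 26 of the 75 genes of all lists. Both SN libraries were the higher for 1 of the 10, 1 of the 11 and 23 of the 75, where 44.8% of all genes tested were. Ggct, which acts in the gamma-glutamyl cycle, was the most abundant of them at 110.2 and 119.3 FPKM in NSN and 108.2 and 109.8 FPKM in SN. Of 11 glutathione S-transferases, which couple glutathione to electrophiles, 1 was called, where 7.93% of all genes tested were. Gsta4, which acts on the lipid peroxidation product hydroxynonenal, rose from 8.82 and 8.17 FPKM in NSN to 14.8 and 13.3 FPKM in SN (log2 fold change 0.69, SE 0.11, limma adjusted p = 0.036). After median scaling its log2 fold change was 0.54 and its adjusted p 0.060. Gstm5, the most abundant transferase, was at 75.3 and 82.8 FPKM in NSN and 76.2 and 76.4 FPKM in SN.

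NADPH, which both glutathione reductase and thioredoxin reductase consume, comes from several enzymes. Of these 11 were tested and 1 was called, where 7.93% of all genes tested were. G6pdx, the first enzyme of the pentose phosphate pathway, fell from 396.6 and 353.6 FPKM in NSN to 261.8 and 267.0 FPKM in SN (log2 fold change -0.50, SE 0.08, limma adjusted p = 0.036). It was the most abundant of its list and was also called after median scaling (-0.66, adjusted p = 0.047), but not with all listed genes (adjusted p = 0.054) or without the variance trend (0.095). Over its alternatives the adjusted p ranged from 0.0015 to 0.106. The list's median was -0.17, beside 0.14 for all genes tested. Of its 11 genes 4 were above 0 and 7 below, where 66.7% of all genes tested were above 0. Among 8 genes of selenoprotein synthesis, on which Gpx4 depends, 1 was called, where 7.93% of all genes tested were. Sephs2, which makes the selenium donor, is the most abundant of these 8 genes. Its level fell from 60.0 and 52.4 FPKM in NSN to 42.1 and 41.2 FPKM in SN (log2 fold change -0.42, SE 0.10, limma adjusted p = 0.048). Sephs2 missed the threshold after median scaling (-0.58, limma adjusted p = 0.054).

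Nrf2 and its regulators had 1 of 11 called, where 7.93% of all genes tested were. Rbx1, a subunit of many cullin ubiquitin ligases including the one that degrades Nrf2, rose from 15.4 and 17.2 FPKM in NSN to 23.2 and 22.5 FPKM in SN (log2 fold change 0.48, SE 0.10, limma adjusted p = 0.045). After median scaling its log2 fold change was 0.33 with an adjusted p of 0.083. Park7, an oxidation-sensitive chaperone, was the most abundant of this list at 75.6 and 66.4 FPKM in NSN and 75.8 and 87.1 FPKM in SN. Of 7 other Nrf2 targets none was called, where 7.93% of all genes tested were. Their median was 0.08 as deposited and -0.06 after median scaling. Fth1, the ferritin heavy chain, was the most abundant of these at 105.9 and 106.9 FPKM in NSN and 99.8 and 122.4 FPKM in SN, with overlapping groups.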

How the data were processed

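The 4 libraries were made by Smart-seq2 from pools of 15 oocytes, with 2 libraries a group. The authors trimmed reads (Trim Galore 0.6.10, per the labels), used HISAT2 for mapping to GRCm39 and featureCounts for counting read pairs on GENCODE exons (no strand, mapping quality of at least 10), and deposited FPKM. DESeq2 was run by the authors on their counts, which were not used here. Only the FPKM were used.

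The FPKM of 5 mitochondrial tRNA genes gave the library totals, and then whole read pairs for 16842 genes (99.9%, tolerance 1e-06). Groups were compared with limma 3.58.1 in R 4.3.3 (lmFit, eBayes with trend) on log2(FPKM + 0.5), for genes with a mean of at least 0.5 FPKM, two-sided, with Benjamini-Hochberg adjustment over all genes tested. The procedure was also run on simulated read pairs whose changes were balanced in direction, so that run cannot tell how scaling affects the calls. Positions, exonic lengths and sequences came from a later GENCODE release on GRCm39. Copies were genomic matches of at least 90% identity to 80% of a coding sequence. Python 3.11.15 did the rest.

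The genes and lists were chosen with earlier results of these data known. Named were the 10 genes, and of the other lists the called genes and each list's most abundant gene, with copies named for one of the 10 genes. Nfe2l2, Keap1 and Gpx1, named for their roles, and Gm21399, a copy of Prdx1, were added after their values were seen.

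Alternatives were pseudocounts of 0.1 and 1, other filters, median scaling, quantile normalization, no variance trend, a replicate block, each library left out, and voom on recovered read pairs with and without trimmed-mean scaling. The exonic length was added after the data were examined.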

Additional observations from a re-analysis of the deposited data

How the results depend on the processing

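Low depth limits the rarest genes: Cat had 4 to 16 read pairs, Gclc 32 to 45 and Gsr 47 to 58. Under alternatives that kept all libraries, 90 values for the 9 genes had the direction and the call reported, 12 changed sign and 3 passed the threshold. Changes of sign came with scaling, and none of those values passed the test. With median scaling the log2 fold changes were -0.086 for Gpx4, -0.11 for Prdx3, -0.075 for Gclc, -0.094 for Glrx and -0.099 for Fth1, and the same with the replicate block added. With quantile normalization they were -0.13 for Gpx4, -0.155 for Prdx3 and -0.054 for Gclc. Voom with trimmed-mean scaling gave -0.079 for Gpx4, -0.11 for Prdx3, -0.14 for Gclc, -0.088 for Glrx and -0.092 for Fth1.

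Leaving out each library in turn, with the lone library assumed to vary as the other group, gave log2 fold changes of -0.060 to 0.049 for Sod1, -0.12 to 0.047 for Sod2, -0.093 to 0.22 for Gpx4, -0.31 to -0.15 for Prdx1, -0.069 to 0.022 for Prdx2, -0.0080 to 0.073 for Prdx3, -0.13 to 0.15 for Gclc, 0.40 to 0.67 for Gclm and -0.21 to -0.18 for Gsr. It gave -0.010 to 0.13 for Glrx, -0.092 to 0.20 for Fth1, -0.12 to 0.018 for Gstm5 and -0.13 to 0.079 for Prdx5. Calls ranged from 0 to 1685 over all genes, from 0 to 1 among the 9 genes (Gclm, without NSN replicate 2) and from 0 to 9 among the 75 genes of the other lists.

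Calls over all genes were 926 as reported, 0 with all listed genes (4092 at an unadjusted p under 0.05), 1496 with a mean of at least 5 FPKM, 257 with median scaling, 230 with quantile normalization, 0 without the variance trend (3449 unadjusted), 2297 with voom and 1716 with voom and trimmed-mean scaling. Among the 9 genes calls were 0 in every limma fit of all 4 libraries on FPKM, and 1 and 2 with the 2 forms of voom, Gclm in both and Prdx1 in the second. Among the 75 they were 4 as reported, 0 with all listed genes, 9 with a mean of at least 5 FPKM, 1 with median scaling, 1 with quantile normalization, 0 without the variance trend, 12 with voom and 16 with voom and trimmed-mean scaling. The cause of these differences was not tested.

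Replicates of the groups share only a number, and the correlation of their differences across 11672 genes was r = -0.07. The replicate block left 422 calls over all genes, 0 among the 9 genes and 2 among the 75. With median scaling and the replicate block there were 0 calls over all genes (2831 at an unadjusted p under 0.05) and 0 among the 75.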
